A study of Homo sapiens with 16 samples.

Results

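The genes described here encode the desmosome, the junction that ties the keratin filaments of neighbouring epithelial cells together. They are the desmogleins DSG2 and DSG3, the desmocollins DSC2 and DSC3, desmoplakin (DSP), plakoglobin (JUP) and the plakophilins PKP1, PKP2 and PKP3. All probes of the deposited signal table that carried one of these 9 symbols were taken, which gave 13 of the 24526 probes on the array. Every probe with one of these symbols was kept, whatever its values. The cells were SUM-225, a human breast cancer cell line in which HER-2 is amplified and over expressed, and every culture received CP724,714, a small molecule that inhibits the HER-2 kinase, at 1 µM. Cultures run in parallel were taken at 16 time points, 3 h apart and the last at 45 h. Each gave the RNA for 1 Illumina bead array, and no time point was repeated. The labels give Ham's F-12 medium with fetal bovine serum, insulin and hydrocortisone, whereas the study's methods list this line among those grown without EGF or insulin. The methods describe a change of medium at the start of treatment in the time courses of other lines. No untreated course was analysed here, and the effects of the inhibitor, of time in culture and of handling cannot be told apart. SUM-225 is a single cell line. In bulk RNA, fewer cells that express a gene and less of its RNA per cell cannot be told apart.

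Desmogleins and desmocollins are cadherins that span the membrane and bind those of the next cell. Inside the cell their tails bind plakoglobin and plakophilins, which are armadillo-repeat proteins, and these bind desmoplakin, whose other end holds the keratin filaments. Most simple epithelia carry DSG2, DSC2 and PKP2, while DSG3, DSC3 and PKP1 are known best from stratified epithelium such as epidermis. In the breast, desmosomes join both luminal and myoepithelial cells, and plakoglobin also serves the adherens junction.

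Values are log2 signal intensities after background correction and quantile normalization. A level of one probe cannot be set against that of another probe, because each binds its target with its own strength. A probe was tested if its detection p-value was under 0.05 on at least 3 arrays, which 16110 probes of the table and 11 of the 13 desmosome probes did. These 11 probes stood for 8 of the 9 genes. A course with linear, quadratic and cubic terms in hours was fitted to every probe with limma, and p-values were adjusted by the Benjamini-Hochberg method over all 16110 probes at a threshold of 0.05. Errors of the time terms are standard errors of that fit and their p-values measure the spread around the fitted course, since no time point was repeated. Precision is limited by the 16 arrays. The median raw signal lay between 242 and 384 over the arrays and between 57.5% and 61.5% of the probes were detected.

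The cells were checked against markers of other cell types. The 5 luminal epithelial markers and the 3 genes of the HER-2 amplicon were detected on all 16 arrays. Of 7 mesenchymal markers, VIM, COL3A1, SPARC and PDGFRB were detected on 0 arrays and the others on 4 or 5. Of the immune markers reported, PTPRC was detected on 0 arrays and CD3E on 1, but CD14 was detected on 16. Of the endothelial markers CDH5 was detected on 1 array, PECAM1 on 16 and VWF on 13. VWF rose by 2.51 and CD14 by 0.34 log2 units over 45 h, and among the luminal markers KRT8 fell by 0.68 and KRT18 fell by 0.74. Their part in the results below was not tested.

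The 4 cadherin genes lie in 1 cluster on chromosome 18 in the RefSeq gene table (GRCh38.p14). The order of the cluster there is DSC3, DSC2, DSC1, DSG1, DSG4, DSG3 and DSG2, with no other protein-coding gene between them. JUP lies on chromosome 17, DSP on 6, PKP1 on 1, PKP2 on 12 and PKP3 on 11. The RefSeq promoter table held 9 start windows for 7 of the 9 genes, and not for PKP2 and PKP3. The 250 bases before the gene start of DSG2 (chr18:31497927-31498176, plus strand), DSG3 (chr18:31447491-31447740, plus strand), DSC2 (chr18:31102422-31102671, minus strand) and JUP (chr17:41786712-41786961, minus strand) are shown because DSG3, DSC2 and JUP each had probes that were higher at 12 to 21 h than before, whereas DSG2, the neighbour of DSG3, did not pass that test. Each is written 5′ to 3′ in the direction of the gene, and capitals mark the E-box CACCTG or its reverse complement CAGGTG, the sequence bound by repressors of the Snail and ZEB families.
DSG2: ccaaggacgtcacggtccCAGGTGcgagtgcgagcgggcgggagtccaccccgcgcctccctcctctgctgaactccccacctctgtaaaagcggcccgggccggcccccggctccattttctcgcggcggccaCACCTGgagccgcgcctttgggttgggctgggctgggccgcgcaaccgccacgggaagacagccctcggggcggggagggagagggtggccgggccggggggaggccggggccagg
DSG3: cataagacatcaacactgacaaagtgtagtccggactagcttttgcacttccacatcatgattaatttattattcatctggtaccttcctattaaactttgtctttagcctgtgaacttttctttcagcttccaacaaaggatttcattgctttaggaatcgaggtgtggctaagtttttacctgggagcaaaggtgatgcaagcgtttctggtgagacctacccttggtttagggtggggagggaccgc
DSC2: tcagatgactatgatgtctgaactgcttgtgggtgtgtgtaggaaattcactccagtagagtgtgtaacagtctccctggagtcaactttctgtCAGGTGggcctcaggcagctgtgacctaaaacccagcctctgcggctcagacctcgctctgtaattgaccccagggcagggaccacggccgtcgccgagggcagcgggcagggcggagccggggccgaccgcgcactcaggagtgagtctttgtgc
JUP: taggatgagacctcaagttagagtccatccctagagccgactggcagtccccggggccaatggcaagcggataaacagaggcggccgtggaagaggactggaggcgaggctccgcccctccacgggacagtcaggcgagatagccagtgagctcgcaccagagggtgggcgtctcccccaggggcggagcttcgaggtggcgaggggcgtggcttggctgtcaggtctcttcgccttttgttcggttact

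The DSG2 window held 2 E-boxes, which began 232 and 116 bases before the start, and was 75.2% G and C. The neighbouring DSG3 window was 42.8% G and C, against a median of 58.0% over all windows of this table. It held none of the motifs searched. The DSC2 window held 1 E-box, 156 bases before the start, and the JUP window shown held none. A second JUP start window of the table, not shown, held 2, which began 54 and 43 bases before that start. Over the 9 windows of the desmosome genes, 4 held an E-box on either strand, against 17.5% of the 35114 windows of the table. The GC box GGGCGG was found in 6 of the 9 windows (42.6% of all) and the CCAAT box CCAAT in 2 (32.0%). The AP-1 motif TGANTCA (6.57% of all) and TATAAA (10.7%) were in 0 of them. Motifs were searched on both strands, and a match of letters is not evidence of a bound site. As for the repressors themselves, the probes of SNAI1, SNAI2, ZEB1 and ZEB2 were detected on 0 of the 16 arrays. TWIST1, which is of neither family, was detected on all 16 and fell by 0.53 log2 units over 45 h (limma, adjusted p = 0.0067).

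Desmosome genes did not move as one block. PKP1 fell and 1 of 2 DSC2 probes rose. DSG3 and the brightest JUP probe had their highest values within 12 to 21 h, lower means afterwards and their lowest value at 45 h. For the JUP probe the 15 h value was only 0.03 log2 units above that at 21 h. Of the 11 probes tested 6 were time-dependent in the F-test of the 3 terms, against 51.3% of all probes tested. These 6 probes belonged to DSC2, DSG3, JUP and PKP1. A linear trend was found for 2 rising probes (DSC2 and DSG2) and 2 falling probes (PKP1 and JUP), against 26.0% rising and 21.7% falling, 47.7% together, over all probes. A curved course, in which the quadratic and cubic terms passed together, was seen for 3 probes, of DSC2, DSG3 and JUP, against 19.3% of all probes. The median linear change of the 11 probes was -0.04 log2 units, and that of all probes tested was 0.05. None of these shares is far from the background, and the members differed from one another in the shape of their courses.

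**Figure D1:**
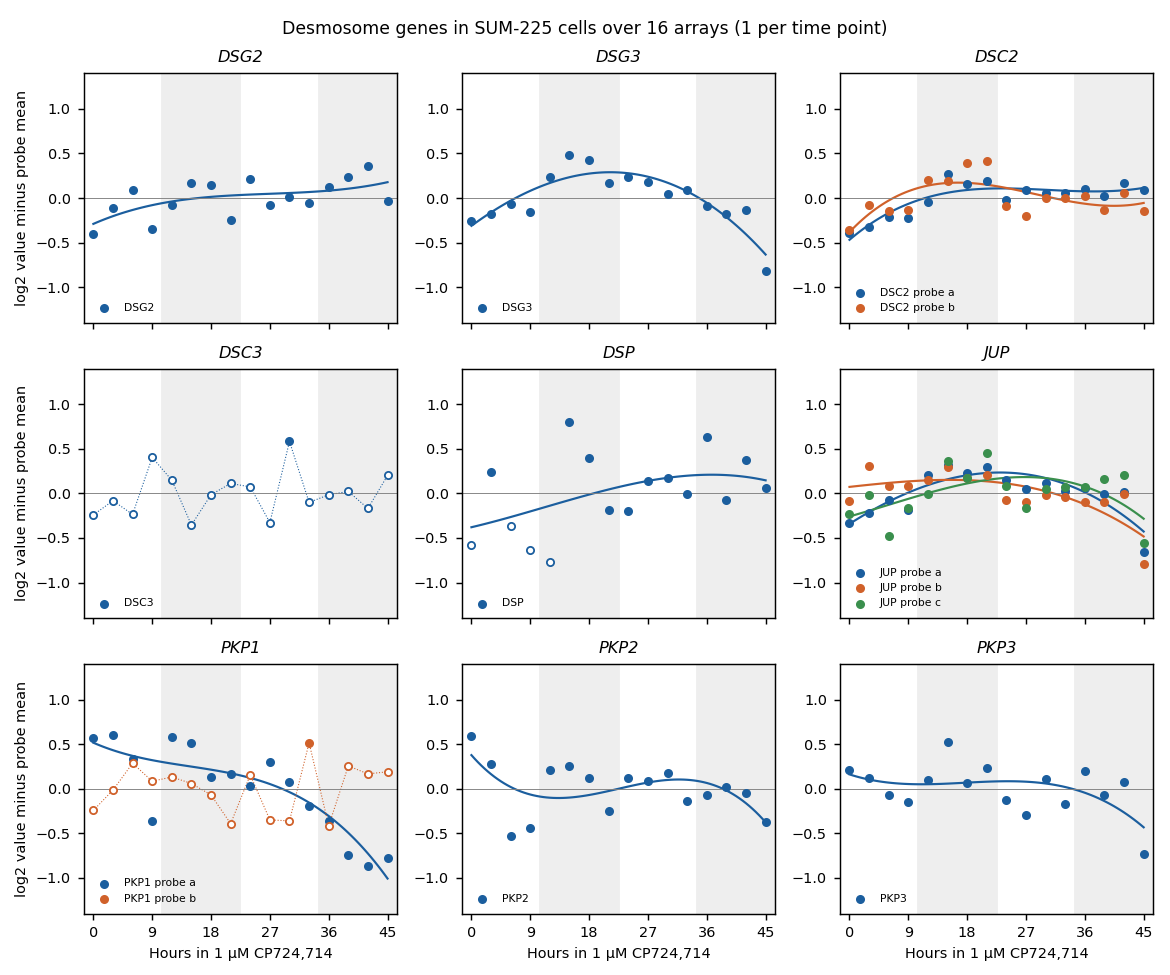
Log2 signal of each desmosome probe minus its mean over 16 arrays (y axis, log2 units) against hours in 1 µM CP724,714 (x axis), 1 panel per gene. Filled points are arrays with a detection p under 0.05, open points are other arrays, lines are the fitted cubic courses (dotted joins for the 2 probes not tested), and shading marks 12 to 21 h and 36 to 45 h. DSG3 and JUP probe a are highest at 15 h and lowest at 45 h, and PKP1 probe a is lowest from 39 to 45 h.

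DSG2 is the desmoglein of simple epithelia and of the heart. Its single probe (ILMN_1704196) was detected on all 16 arrays. Over the 16 arrays its lowest log2 value was 9.33, its median 9.72 and its highest 10.09. The lowest value was at 0 h and the highest at 42 h, a range of 1.69-fold. From 0 to 9 h the 4 values were 9.33, 9.61, 9.81 and 9.38, and from 36 to 45 h they were 9.85, 9.97, 10.09 and 9.69. The late arrays were higher as a group, and the 45 h value lay below the 6 h value, so that the groups overlapped. The linear change over 45 h was 0.37 ± 0.15 log2 units (limma, adjusted p = 0.0481), close to the threshold. The F-test of the whole course did not pass (adjusted p = 0.163). The linear call was lost when any of 9 arrays was left out, those at 0, 3, 9, 12, 24, 30, 36, 39 and 42 h, with estimates between 0.28 and 0.46 over all arrays left out in turn, and under cyclic loess (0.28, adjusted p = 0.129).

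DSG3 is the desmoglein of the lower layers of stratified epithelium. Its probe (ILMN_1655468) was detected on all arrays, with a lowest log2 value of 8.57, a median of 9.38 and a highest of 9.88. It stood at 9.14, 9.21, 9.32 and 9.24 from 0 to 9 h and at 9.63, 9.88, 9.82 and 9.56 from 12 to 21 h. All 4 arrays of the second set were above all 4 of the first. The values were 9.62, 9.57, 9.44 and 9.48 from 24 to 33 h and 9.30, 9.21, 9.25 and 8.57 from 36 to 45 h. The last 4 arrays were thus all below the 4 before them, and back in the range of the start except for 45 h, which was the lowest of the course. DSG3 was time-dependent (limma, adjusted p = 0.000206) and curved (adjusted p = 0.00112), both also with any single array left out. Its linear change, -0.27 ± 0.13 log2 units, did not pass (adjusted p = 0.0988), and without the 45 h array it was 0.02.

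DSC2 is the most widely expressed desmocollin, and both of its probes were detected on all 16 arrays. Probe a (ILMN_1663119), the brighter of them, ran from a lowest log2 value of 12.09 through a median of 12.54 to a highest of 12.75. From 0 to 9 h it was at 12.09, 12.16, 12.26 and 12.26, and from 12 to 21 h at 12.44, 12.75, 12.64 and 12.67. From 24 h on it stayed between 12.46 and 12.65. The first 4 arrays were below all 12 that followed. The linear change was 0.41 ± 0.09 log2 units (limma, adjusted p = 0.000737). The quadratic and cubic terms also passed (adjusted p = 0.0240). These terms lost their call when the 3, 15, 18 or 21 h array was left out (adjusted p up to 0.0546), and the linear change did not lose its call with any array left out. Probe b (ILMN_2381257) stood between 9.51 and 9.78 from 0 to 9 h, between 10.05 and 10.28 from 12 to 21 h, and between 9.66 and 9.92 on the 8 later arrays. It shared the rise at 12 h with probe a but returned to near its starting range, and its linear change was 0.04 ± 0.14 (adjusted p = 0.817). Its F-test for time was at the threshold (adjusted p = 0.0499) and passed with only 4 of the 16 arrays left out in turn. The difference between the 2 probes over time was not tested.

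DSC3, the desmocollin of the basal layers of stratified epithelium, was detected on 1 of 16 arrays (probe ILMN_2359159, at 30 h). Its raw signals lay between 181 and 262, and it was not tested.

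Plakoglobin was measured by 3 probes, each detected on all arrays. Probe a (ILMN_1733811) was the brightest of the desmosome probes, with raw signals from 8909 to 27041, a lowest log2 value of 13.44, a median of 14.14 and a highest of 14.42. It was at 13.77, 13.88, 14.03 and 13.91 from 0 to 9 h and at 14.30, 14.42, 14.33 and 14.39 from 12 to 21 h. The second set lay entirely above the first. It was between 14.12 and 14.25 from 24 to 33 h, then at 14.16, 14.09, 14.11 and, at 45 h, 13.44. The 45 h array was the lowest of the 16. Probe a was time-dependent (limma, adjusted p = 0.000296) and curved (adjusted p = 0.00101), also with any array left out, and had no linear trend (-0.04 ± 0.11, adjusted p = 0.790). Without the 45 h array the linear change was 0.23 with an adjusted p of 0.0363, so that its direction turned on this array.

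The other JUP probes shared the low 45 h value and differed in the rest of the course. Probe c (ILMN_2366864) had a lowest log2 value of 8.45, a median of 9.06 and a highest of 9.46, at 21 h, and it passed neither the F-test for time (adjusted p = 0.136) nor that for a linear trend (0.10 ± 0.18, adjusted p = 0.673). Probe b (ILMN_1741970) was highest at 3 h, with 9.84, and was between 9.45 and 9.84 from 0 to 9 h, between 9.68 and 9.82 from 12 to 21 h, and between 9.44 and 9.51 from 24 to 33 h. At 36, 39, 42 and 45 h it was 9.43, 9.43, 9.53 and 8.74. Its linear change was -0.49 ± 0.14 log2 units (limma, adjusted p = 0.00780). Without the 45 h array this was -0.26 and no longer passed (adjusted p = 0.0749). Which JUP transcripts each probe binds was not analysed here.

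Desmoplakin, the link to the keratin filaments, was near background. Its single probe (ILMN_1677032) was detected on 12 of 16 arrays, with raw signals from 205 to 358. The 4 arrays without detection were those at 0, 6, 9 and 12 h. Log2 values ran from 5.69 at 12 h through a median of 6.48 to 7.26 at 15 h, with large steps between neighbouring arrays. The residual SD around the fitted course was 0.45 log2 units, against a median of 0.19 over all probes. No trend passed the test (linear change 0.61 ± 0.32, adjusted p = 0.130).

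The plakophilins bring desmoplakin to the cadherins and also occur outside junctions. PKP1 probe a (ILMN_1663454) had a lowest log2 value of 7.10, a median of 8.06 and a highest of 8.56. It was at 8.53, 8.56, 8.29 and 7.60 from 0 to 9 h, at 8.54, 8.48, 8.09 and 8.12 from 12 to 21 h and at 7.99, 8.27, 8.03 and 7.77 from 24 to 33 h. From 36 to 45 h it was at 7.61, 7.22, 7.10 and 7.19. The raw signals there were 334, 316, 305 and 285, within the range of the DSP probe (205 to 358). They were detected but dim, so the size of the fall depends on the background correction. The late values were below all 8 of the middle arrays, and the 9 h array was low among the first 4 and overlapped with them. The linear change was -1.28 ± 0.20 log2 units (limma, adjusted p = 3.47e-05), the largest in size of the 11 probes, with estimates from -1.45 to -1.17 when each array was left out. Without background correction it was -0.74, which still passed (adjusted p = 4.70e-05). With a step between 21 and 24 h as a further term it was -1.38 and did not pass (adjusted p = 0.0756). The second PKP1 probe (ILMN_1716424) was detected on 1 of 16 arrays, with raw signals from 188 to 241, and was not tested.

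PKP2, the plakophilin of simple epithelia and heart, was detected on all arrays (probe ILMN_2386973), with a lowest log2 value of 8.82, a median of 9.41 and a highest of 9.95. It was at 9.95, 9.64, 8.82 and 8.92 from 0 to 9 h, and between 8.98 and 9.60 afterwards. The highest and the lowest values both lay within the first 6 h, and the step from 3 to 6 h was -0.82 log2 units. PKP2 passed neither the F-test (limma, adjusted p = 0.174) nor the test for a linear trend (-0.26 ± 0.20, adjusted p = 0.293). PKP3, which is widespread in epithelia, was also detected throughout (probe ILMN_1753457), with a lowest log2 value of 8.14 at 45 h, a median of 8.93 and a highest of 9.39 at 15 h. It did not pass either (F-test adjusted p = 0.179, linear change -0.38 ± 0.19, adjusted p = 0.112).

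**Figure D2:**
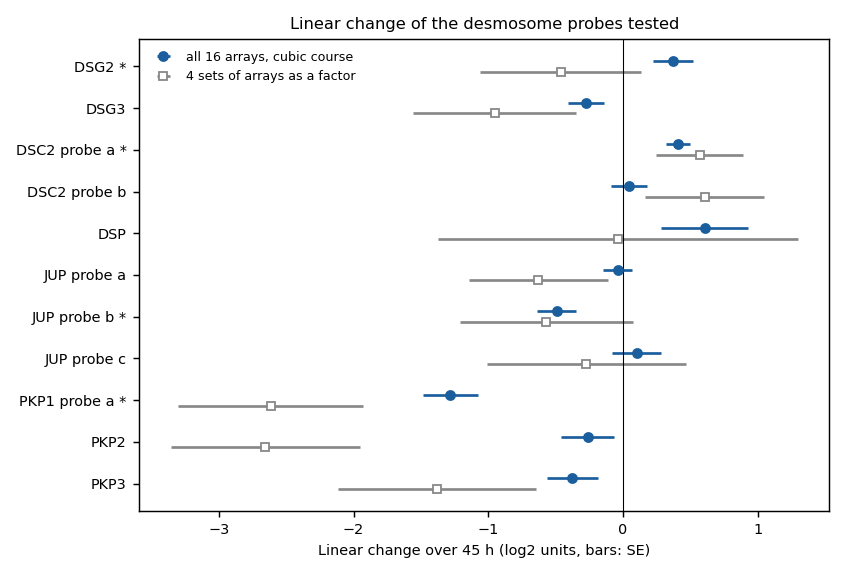
Linear change over 45 h (x axis, log2 units, bars are SE) of the 11 desmosome probes tested (y axis). Circles are the cubic fit over all 16 arrays, squares a straight line with the 4 sets of arrays as a factor, and asterisks mark an adjusted p under 0.05 in the first fit. PKP1 probe a is at -1.28 and DSC2 probe a at 0.41, and none of the 11 passed in the second fit.

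For contrasts the arrays were also taken as 4 sets of 4 neighbours, with borders after 9, 21 and 33 h. The time points of a set are not replicates. Errors and p-values of the set contrasts measure the spread between them, which also holds change within the set. The sets came from earlier results of these data, and no label names them. The root-mean-square step over all probes was 0.42, 0.36 and 0.33 log2 units across these borders and 0.26 to 0.42 between other neighbours, so that step size alone does not show the borders. With the set as a factor, no desmosome probe kept a linear trend within sets (0 of 11 by limma, 2 at an unadjusted p under 0.05), against 0.900% of all probes. Each set covers 9 h only, and this fit had larger errors. PKP1 probe a and PKP2 had the largest within-set estimates, -2.62 ± 0.68 (adjusted p = 0.0750) and -2.65 ± 0.70 (adjusted p = 0.0794). DSC2 probe a (0.57 ± 0.32, adjusted p = 0.437) and JUP probe b (-0.57 ± 0.64, adjusted p = 0.739) kept the sign of their change over all arrays, as PKP1 probe a did. Under this fit DSG2 was at -0.46 ± 0.60, opposite in sign to its change over all arrays.

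Between the first and the last set, 36 to 45 h against 0 to 9 h, 2 desmosome probes were higher and 2 lower, against 24.9% and 20.0% of all probes tested. DSC2 probe a was higher by 0.38 ± 0.07 log2 units (limma, adjusted p = 0.000268) and DSG2 by 0.37 ± 0.13 (adjusted p = 0.0245). PKP1 probe a was lower by 0.97 (-0.97 ± 0.19, adjusted p = 0.000359) and JUP probe b by 0.35 (-0.35 ± 0.14, adjusted p = 0.0459). The groups did not overlap for DSC2 probe a, which lay wholly higher as 19.7% of all probes did, and overlapped for the other 3. Without the 9 h array only the DSC2 and PKP1 calls remained. The DSG2 call was also lost without the 0, 39 or 42 h array, and the JUP call passed with only 4 of the 16 arrays left out in turn. At the end of the course DSC2 probe a was thus above the start and PKP1 probe a below it. The upward call of DSG2 rested on single arrays. DSC2 probe b (0.13 ± 0.10, limma, adjusted p = 0.288) and DSG3 (-0.14 ± 0.13, adjusted p = 0.422) did not pass.

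Between the first and the second set the differences ran in 1 direction. All 11 probes, which stand for 8 genes, were higher in the mean of 12 to 21 h than in that of 0 to 9 h. The median difference was 0.40 log2 units, against 0.04 over all probes tested. The share of all probes that were higher in sign was not counted, so whether this agreement is unusual cannot be read. Probes measured on the same arrays, some of them of the same gene, are not independent. This contrast was chosen after the courses had been seen. For 5 probes the difference passed, against 15.9% of all probes in that direction and 29.8% in either. They were DSG3 (0.49 ± 0.13 log2 units, limma, adjusted p = 0.00886), DSC2 probe a (0.43 ± 0.07, adjusted p = 0.000199), DSC2 probe b (0.48 ± 0.10, adjusted p = 0.000951), JUP probe a (0.47 ± 0.11, adjusted p = 0.00371) and JUP probe c (0.47 ± 0.15, adjusted p = 0.0273). The groups did not overlap for any of the 5, as for 12.5% of all probes. JUP probe c lost its call without the 6, 15 or 21 h array (adjusted p up to 0.0917), and the other 4 kept theirs with any array left out. The 3 plakophilin probes differed by 0.06 to 0.20 and did not pass.

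The later borders moved fewer desmosome probes. From 12 to 21 h to the next set, DSC2 probe b was lower (-0.37 ± 0.10 log2 units, limma, adjusted p = 0.0225) and no other desmosome probe passed, against 7.57% of all probes in either direction and 3.36% lower. All 4 values of DSC2 probe b, of JUP probe a and of JUP probe b were below those of the set before, and for the JUP probes the difference did not pass (adjusted p = 0.413 and 0.303). From 24 to 33 h to the last set, PKP1 probe a was lower (-0.74 ± 0.19, limma, adjusted p = 0.0325), against 3.54% of all probes in either direction and 2.82% lower. DSG3 lay wholly lower as well, by 0.44 (-0.44 ± 0.13), but did not pass (adjusted p = 0.0856). The share of all probes that lay wholly lower was not counted for these later borders. Whether such separation is unusual here cannot be read.

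**Figure D3:**
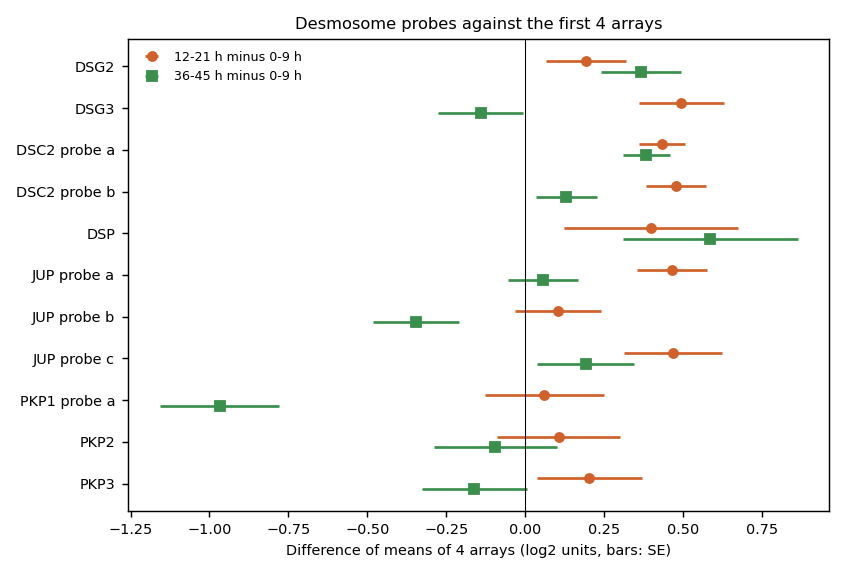
Difference of the mean of 4 arrays from that of 0 to 9 h (x axis, log2 units, bars are SE) for the 11 desmosome probes tested (y axis). Circles are 12 to 21 h and squares 36 to 45 h. All 11 circles lie above 0, whereas the squares run from -0.97 for PKP1 probe a to 0.59 for DSP.

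The highest of the 16 values lay within 12 to 21 h for 7 of the 11 probes, against 18.8% of all probes. The 4 arrays of this set had raw medians of 294, 321, 316 and 361 in order of time. The 12 h median was close to the 296 of the 9 h array, and the highest of all, 384, was at 27 h, outside the set. Across the 16 arrays the log2 values, which had been quantile normalized, had a Pearson r with the array median of 0.48 for DSG3, 0.53 for DSC2 probe a, 0.48 for JUP probe a and 0.43 for JUP probe c. For DSG2 it was -0.14 and for the plakophilins it was 0.09 to 0.14. The part of the array differences in the rise at 12 to 21 h was not tested. From 9 to 12 h, 10 of the 11 probes were higher and 1 was lower, while 48.3% of all probes were lower. This step is also the border between 2 sets.

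The 45 h array was the lowest of the 16 for 5 of the 11 probes, against 14.2% of all probes. They were DSG3, PKP3 and the 3 JUP probes. From 42 to 45 h, 10 of the 11 desmosome probes were lower, while 48.5% of all probes were. The steps were -0.68 log2 units for DSG3, -0.67, -0.79 and -0.76 for JUP probes a, b and c, and -0.80 for PKP3. PKP1 probe a, already low, differed by 0.09. The 45 h array had the fewest detected probes of the 16, at 57.5%. Whether the 45 h values belong to the time point or to this 1 culture or array was not tested.

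Within families the balance between members was followed as the log2 ratio of 2 probes on the same array. Its mean over the 16 arrays was subtracted. Such a ratio removes an equal log2 shift of both probes on an array, but not array differences that depend on signal level. The ratio of DSG2 to DSG3 lay between -0.20 and 0.16 from 0 to 9 h, between -0.41 and -0.28 from 12 to 21 h and between -0.25 and -0.02 from 24 to 33 h. From 36 to 45 h it lay between 0.21 and 0.79. The last 4 arrays were above all 12 others. The straight-line change over 45 h was 0.64 ± 0.23 log2 units. The permutation tests of this and the other ratios took the arrays as exchangeable. Neighbours in a time course need not be, and the p-values may then be too small. Pearson r with time was 0.60 (n = 16, two-sided permutation test, p = 0.0131, adjusted p = 0.0209 over 8 relations) and Spearman rho was 0.49 (permutation p = 0.0548, adjusted p = 0.073). With both end arrays (0 and 45 h) left out, r was 0.49 (n = 14, permutation p = 0.0763) and no longer passed. The change was 0.72 without the 0 h array and 0.44 without the 45 h array.

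Over all 16 arrays PKP1 declined against PKP2. Their ratio lay between -0.02 and 0.87 from 0 to 9 h, between 0.01 and 0.42 from 12 to 21 h, between -0.11 and 0.21 from 24 to 33 h and between -0.82 and -0.28 from 36 to 45 h. The last 4 arrays were below all others. The change was -1.02 ± 0.24 log2 units over 45 h, with r = -0.75 (n = 16, permutation p = 0.00062, adjusted p = 0.00308) and rho = -0.77 (permutation p = 0.00077, adjusted p = 0.00308). With both end arrays left out r was -0.83 (n = 14, permutation p = 8e-05). Without background correction the change was -0.52. PKP1 over PKP3 changed by -0.91 ± 0.27 (r = -0.66, permutation p = 0.00498, adjusted p = 0.0133, n = 16, and rho = -0.62, permutation p = 0.0111, adjusted p = 0.0209), with r = -0.71 without both end arrays (n = 14, permutation p = 0.00502). Without background correction the change was -0.47. PKP2 over PKP3 had no detectable trend (0.11 ± 0.24, r = 0.12, permutation p = 0.643, adjusted p = 0.735, n = 16, and rho = 0.07, permutation p = 0.805, adjusted p = 0.805). Its r was 0.19 without the end arrays (n = 14, permutation p = 0.503). With set as a factor the linear estimates of PKP1 probe a and PKP2 were close to each other, -2.62 ± 0.68 and -2.65 ± 0.70. A decline of PKP1 against PKP2 was thus not seen within sets. In the same fit PKP3 was at -1.38 ± 0.74, DSG2 at -0.46 ± 0.60 and DSG3 at -0.95 ± 0.61. Within-set trends of the ratios themselves were not tested.

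**Figure D4:**
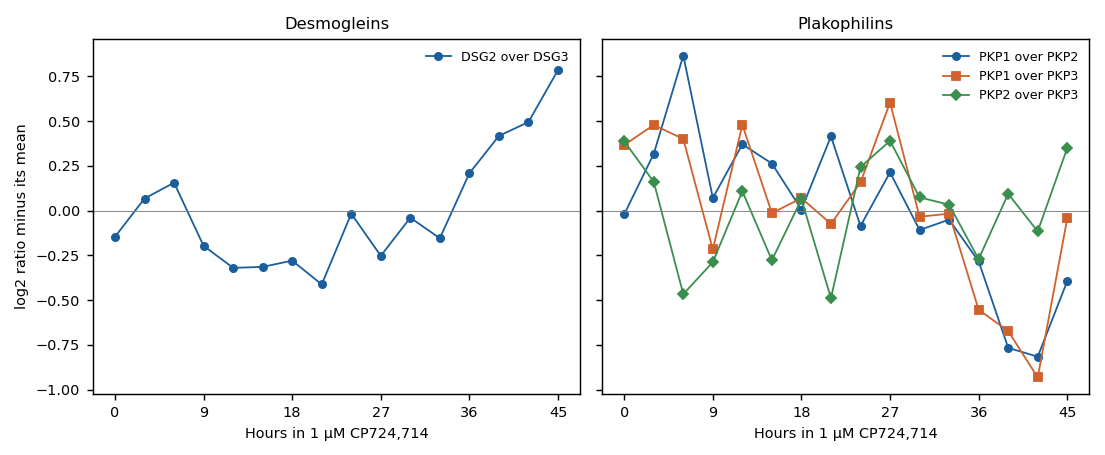
Log2 ratio of 2 probes on the same array minus its mean over 16 arrays (y axis) against hours in 1 µM CP724,714 (x axis), with desmogleins on the left and plakophilins on the right. Each point is 1 array. DSG2 over DSG3 reaches 0.79 at 45 h, and PKP1 over PKP2 and PKP1 over PKP3 are below 0 on all 4 arrays from 36 h.

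Correlations between probes are given as descriptions over 16 arrays that share a common time axis. DSG3 and JUP probe a followed each other most closely, with a Pearson r of 0.93 and a Spearman rho of 0.91, and r was 0.86 without the 45 h array. DSC2 probe b and JUP probe a had an r of 0.70, and 0.81 without 45 h. JUP probe b and PKP3 had an r of 0.79, which was 0.53 without 45 h. The 3 JUP probes correlated with one another at 0.59 to 0.79, and without the 45 h array the r was 0.27 for probes a and b, 0.29 for b and c and 0.68 for a and c. The 2 DSC2 probes had an r of 0.64. DSG2 and DSG3, neighbours on the chromosome, had an r of 0.21. The lowest values of the 55 pairs were those of PKP1 probe a with DSG2 (r = -0.40) and with DSC2 probe a (r = -0.34), both weak and not tested.

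**Figure D5:**
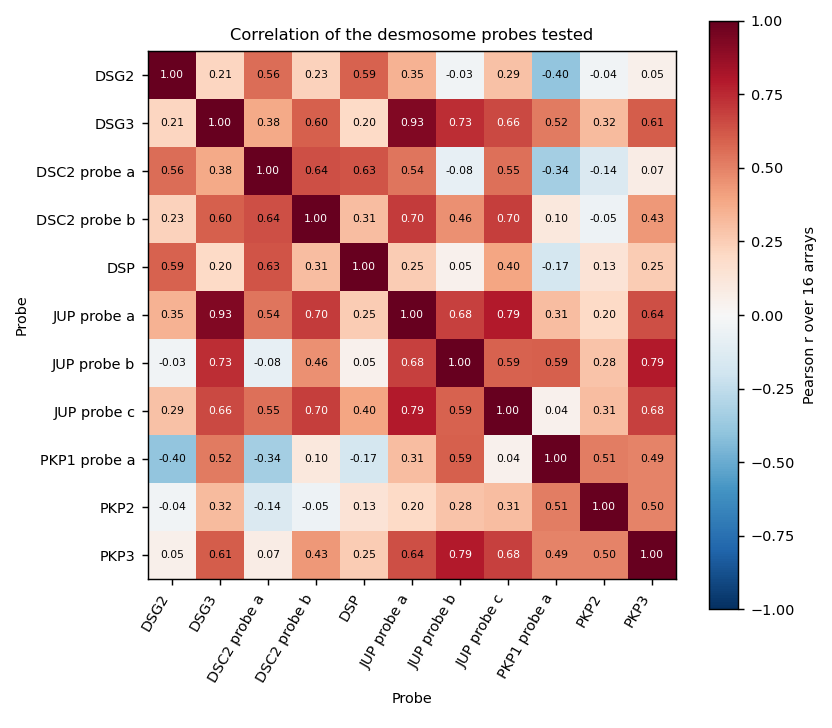
Pearson r over 16 arrays between the log2 values of the 11 desmosome probes tested (both axes), with colour from -1 (blue) to 1 (red). The highest value off the diagonal is 0.93, for DSG3 and JUP probe a, and the lowest is -0.40, for DSG2 and PKP1 probe a.

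Among all other probes tested, those with courses most like the brightest probe of each gene were named by the highest r over the 16 arrays. They were ALDH3B2 (r = 0.96) and NFIX (0.92) for DSG3, DMWD (0.95) and LGALS3BP (0.92) for JUP, and KIDINS220 (0.96) and IFIT5 (0.95) for DSC2. For PKP1 they were TIMM44 (0.91) and KIF23 (0.90), for PKP2 FLJ10661 (0.89) and MN1 (0.87), and for PKP3 MBD1 (0.87) and IDH3G (0.87). For DSG2 they were DDX17 (0.86) and HSZFP36 (0.83), and for the dim DSP probe MGC35206 (0.85) and KIAA0372 (0.83). These are the highest of 16110 probes, and they are a description.

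Other genes of the junction were read from lists by the brightest probe of each gene. Of 7 other desmosome proteins tested, 1 rose and 4 fell, with a median linear change of -0.43 log2 units. PERP, a membrane protein of desmosomes, rose by 1.28 ± 0.11 (limma, adjusted p = 1.64e-08). CDSN, the corneodesmosin of the outer epidermis, fell by 1.18 ± 0.23 on the log2 scale (limma, adjusted p = 0.000341) and DSG4 fell by 0.73. Both probes were dim and detected on 15 arrays. Their mean log2 values of 6.94 and 6.76 were near the 6.45 of DSP, so these falls lie close to background. PNN fell by 0.63 and PKP4 fell by 0.38. DSG1 (-0.43, adjusted p = 0.211) and DSC1 (0.05, adjusted p = 0.881) did not pass, and were detected on 8 and 3 arrays. Of the 5 plakins, the cytolinker family of desmoplakin, EVPL rose by 0.37 ± 0.10 (adjusted p = 0.00348) and the other 4 did not pass the linear test. A curved course was called for 3 of the 5, against 19.3% of all probes. They were EVPL, PPL and PLEC (limma, adjusted p = 0.0199, 0.0374 and 0.00811), and PPL and PLEC were highest at 15 h.

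Among the keratins, which desmosomes anchor, 7 of 12 tested fell and 1 rose, with a median of -0.71. Over all probes tested 21.7% fell and 26.0% rose, which also applies to the junction lists that follow. The largest fall was in KRT6B, a keratin of activated epidermis (-3.26 ± 0.17, adjusted p = 2.58e-11), and the rise was in KRT15, a basal keratin (1.61 ± 0.15, adjusted p = 5.98e-08). Of 9 adherens junction genes tested 2 rose and 3 fell. NECTIN4 (PVRL4 on the array) rose by 0.95 and NECTIN1 (PVRL1) fell by 1.29. Of 7 hemidesmosome genes, 1 rose, CD151 (0.14), and 4 fell, with ITGB4, the integrin subunit that binds the keratin linkers, at -1.66. The changes in desmosome genes thus stood beside falls of most keratins tested and of the hemidesmosome integrins ITGA6 (-1.30) and ITGB4.

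Epithelial transcription factors rose in 6 of 10 cases and fell in 1, against 26.0% and 21.7% of all probes. ELF3 rose by 1.85 ± 0.13 (limma, adjusted p = 1.54e-09), KLF5 rose by 1.10, KLF4 by 0.53, and the grainyhead factors GRHL1, GRHL2 and GRHL3 by 0.48, 0.39 and 0.52. EHF fell by 0.31. TP63 (TP73L on the array), known as a regulator of stratified epithelium, was detected on 0 arrays. Of 9 genes for enzymes and kinases that shed, cut or signal to desmosomes, 5 rose and 1 fell. ADAM10, a sheddase of desmogleins, rose by 1.44 ± 0.25 (limma, adjusted p = 8.62e-05), KLK7 by 1.08 and PRKCA by 1.05, ADAM15 rose by 0.30 and ADAM17 by 0.34, and SRC fell by 0.29. The shares of all probes that rose and fell, 26.0% and 21.7%, apply to these lists as well.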

How the data were processed

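Gene expression was measured in SUM-225 cells at 16 time points, with 1 array per time point, grouped by the time in their labels. The deposited table holds a linear signal intensity per probe and array, which the authors had neither corrected for background nor normalized, and a detection p-value, also deposited. The study's methods describe quantile normalization and name the Ref8v2 array for time courses. The labels give no array version, and the scanning software and genome build are not given in the sources used here. Signals were corrected by normexp with limma 3.58.1 in R 4.3.3 (negative control distribution inferred from detection p-values, offset 16), quantile normalized and log2 transformed. The offset shrinks differences of dim probes. Probes detected (p under 0.05) on at least 3 arrays were fitted with a cubic polynomial in hours in limma, with eBayes moderation that follows intensity. The F-test of 3 terms, the first-order term scaled to 45 h and the F-test of the higher terms were used. Contrasts of the 4 sets came from a fit with set as a factor. All tests were two-sided with Benjamini-Hochberg adjustment over 16110 probes. The fit was also run on simulated data with independent noise and straight-line changes. Such data hold no dependence between neighbouring time points and no array effects, so these limits were not examined. Ratio trends were tested by permutation with 100000 resamples (scipy 1.17.1, Python 3.11.15, matplotlib 3.10.9).

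The desmosome genes and the lists were chosen with earlier results of these data known. Named were the 9 desmosome genes, the 2 probes of other genes most like each of them, and the largest rise and fall of each list. Other list members are named after their values were seen. The brightest probe stood for a gene. A gene of the marker lists is not reported here. KAZN, KRT80, KRT81, AFDN and ZNF750 were not found under these or older symbols. Alternatives were uncorrected signals (floor 16), an offset of 50, scaling by cyclic loess or by the median, tests of every probe or of those detected on all 16 arrays, array weights, other time courses, a step between 21 and 24 h, set as a factor, and single arrays left out. The contrast of 12 to 21 h and the alternatives for ratios were added after the data were seen.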

Additional observations from a re-analysis of the deposited data

How the results depend on the processing

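No paired analysis was possible because there was no second array at any time. PKP1 probe a and DSC2 probe a kept their linear call, and DSG3 and JUP probe a their curved call, with each array left out and under the 7 changes of background, scaling, filter or weights. With set as a factor the count of linear trends was 0 (4 in the main fit), and DSG2 was at -0.46, DSP at -0.036 and JUP probe c at -0.27, opposite in sign. With a step between 21 and 24 h the linear change was 0.043 for DSG3, 0.46 for JUP probe a, 0.058 for JUP probe b and 0.63 for PKP3, and none of these passed. Under that step DSG2 (0.20) lost its call too, and DSC2 probe b (0.99) and JUP probe c (1.17) passed newly. JUP probe a was at 0.12 with array weights and DSC2 probe b at -0.043 under cyclic loess. Leaving out single arrays turned DSC2 probe b (-0.10 without 0 h, range -0.10 to 0.11), DSG3 (0.020 without 45 h, range -0.44 to 0.020), JUP probe a (0.23 without 45 h, range -0.19 to 0.23), JUP probe c (-0.023 without 6 h, range -0.023 to 0.36) and the PKP2 to PKP3 ratio (-0.0093 without 6 h and -0.014 without 45 h, range -0.014 to 0.30).

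With arrays left out in turn, counts of called probes ran from 5 to 6 for time, 3 to 5 for a linear trend, 2 to 5 for a curve (5 without 42 h), 2 to 5 for 36 to 45 h against 0 to 9 h (2 without 9 h) and 4 to 5 for 12 to 21 h against 0 to 9 h. Of the other settings of single probes and ratios, 321 kept direction and call or size, 9 passed newly and 18 no longer passed. Cyclic loess moved the median linear change of all probes from 0.05 to 0.0027. DSC3, DSP and the second PKP1 probe lie too close to background for a change to be read at this signal. Which cause moved these values was not tested.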
